A study of Mus musculus with 4 samples.

Results

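Collagen chain genes were followed in mouse testes at postnatal day 14. The members were all genes whose symbol has the form of a numbered collagen chain (Col, a type number, a and a chain number), which gave 44 of the 55401 rows in the expression tables. Transcripts were compared between 2 libraries from Kctd19 knockouts (Kctd19-/-, ko) and 2 libraries from heterozygotes (Kctd19+/-, het), all of the C57BL/6J strain and untreated. Both groups carried at least 1 disrupted Kctd19 allele, and no wild type stood beside them. The replicates are given as biological, and the labels name neither the deleted part of the gene nor the number of testes in a library. The question of the design was which transcripts differ in juvenile testes without Kctd19, a protein of meiotic germ cells. RNA was drawn from testes with no sort or gate named, and in such bulk samples fewer cells of a type and less RNA per cell cannot be told apart.

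Collagens are secreted or membrane-bound proteins in which chains with glycine at every turn of a repeating motif wind into a triple helix. Fibrillar collagens form the cables of connective tissue, type IV collagen forms the sheet-like network of basement membranes, and the other classes coat fibrils, link sheets to fibrils or span the cell membrane. In the testis, the seminiferous tubule stands on a basement membrane made by Sertoli and peritubular cells, with fibrillar layers of the tubule wall, the interstitium and the capsule outside it.

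Levels are given in FPKM (fragments scaled by exon length and by the assigned reads of the library), with ko replicates 1 and 2 before het replicates 1 and 2. Assigned reads were 12155108 to 19430386 per library, and mitochondrial genes took 2.92% to 3.50% of them. Kctd19 itself stood at 12.8 and 15.6 FPKM in ko testes, against 29.7 and 18.2 FPKM in het testes, and did not pass the test, with a log2 fold change of -0.69 (SE 0.25, p adjusted by Benjamini-Hochberg over all genes in limma = 0.529). With the deleted part unnamed, this summed level neither bears out nor contradicts the labels. The libraries carried markers of testis cell types: Amhr2 of Sertoli cells stood at 128 FPKM or more, Dazl of germ cells at 173 FPKM or more and Acta2 of peritubular muscle at 151 FPKM or more in each.

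The genes of type IV collagen lie in head-to-head pairs, whose start sites face each other, and the stretches between them are shown because their levels are read pair by pair below. The first exons of Col4a1 and Col4a2 overlap by 22 bases (GRCm38 chr8:11312805-11312826, shown on the Col4a1 strand). The starts of Col4a4 and Col4a3 are separated by 71 bases (chr1:82586850-82586920, shown on the Col4a4 strand). Col4a6 and Col4a5 are 1308 bases apart, and the 250 bases before the Col4a6 start are shown (chrX:141474077-141474326, minus strand). For comparison, 250 bases are given from Col3a1, one of the most abundant fibrillar chains (chr1:45311288-45311537, plus strand), and from Col15a1, the tested chain with the lowest fold change, taken at its RefSeq start (chr4:47207762-47208011, plus strand). Sequences are RefSeq, build GRCm38.p6, written 5′ to 3′. Capitals mark a match on either strand to 1 of 3 motifs, namely CCAAT (the CCAAT box), GGGCGG (the GC box) and TATAAA (the TATA box).
Col4a1 and Col4a2: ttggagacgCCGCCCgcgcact
Col4a4 and Col4a3: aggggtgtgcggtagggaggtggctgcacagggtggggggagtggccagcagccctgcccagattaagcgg
Col4a6: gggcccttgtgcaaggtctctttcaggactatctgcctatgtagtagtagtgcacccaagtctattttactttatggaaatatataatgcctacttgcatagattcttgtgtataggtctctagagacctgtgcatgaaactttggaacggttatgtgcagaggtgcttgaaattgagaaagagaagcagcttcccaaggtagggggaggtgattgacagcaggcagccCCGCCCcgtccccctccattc
Col3a1: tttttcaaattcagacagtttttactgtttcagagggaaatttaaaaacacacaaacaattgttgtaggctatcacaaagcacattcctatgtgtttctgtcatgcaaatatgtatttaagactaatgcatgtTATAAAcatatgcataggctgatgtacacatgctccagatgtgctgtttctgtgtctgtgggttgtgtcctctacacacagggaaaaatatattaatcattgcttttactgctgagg
Col15a1: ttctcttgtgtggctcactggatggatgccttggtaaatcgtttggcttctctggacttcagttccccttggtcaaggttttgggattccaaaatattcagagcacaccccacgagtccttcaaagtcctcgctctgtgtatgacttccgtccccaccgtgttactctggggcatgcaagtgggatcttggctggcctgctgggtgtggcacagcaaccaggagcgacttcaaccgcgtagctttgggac

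The GGGCGG motif, or CCGCCC on the other strand, lay in the Col4a1 and Col4a2 overlap and 21 bases before the Col4a6 start. TATAAA lay 117 bases before the Col3a1 start, and none of the 3 motifs was in the Col4a4 and Col4a3 stretch or in the Col15a1 stretch. RefSeq windows of 250 bases before to 50 bases after the start were at hand for 35 of the 44 members, in 38 windows. GGGCGG or CCGCCC was in 23 of these 38 windows (60.5%) and in 35.7% of all 32851 promoter windows of the same length. CCAAT or ATTGG was in 34.2% of the collagen windows and 37.4% of all windows, and TATAAA or TTTATA in 13.2% and 13.6%. A match of letters does not show that a factor binds there.

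The 44 chains together summed to 858 and 602 FPKM in the ko testes and 894 and 754 FPKM in the het testes. The group means were 730.1 ± 181 FPKM in ko and 824 ± 98.8 FPKM in het (SD, n = 2 each). The lowest sum was that of ko replicate 2, and ko replicate 1 lay between the het libraries, so the groups overlapped. Collagen reads made up 0.699% (95% Wilson interval 0.696% to 0.703%) of assigned reads in ko replicate 1 and 0.487% (0.483% to 0.490%) in ko replicate 2. They made up 0.732% (0.728% to 0.736%) in het replicate 1 and 0.613% (0.608% to 0.617%) in het replicate 2. These intervals cover counting error only, and the libraries of 1 genotype differed by far more than that.

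**Figure D1:**
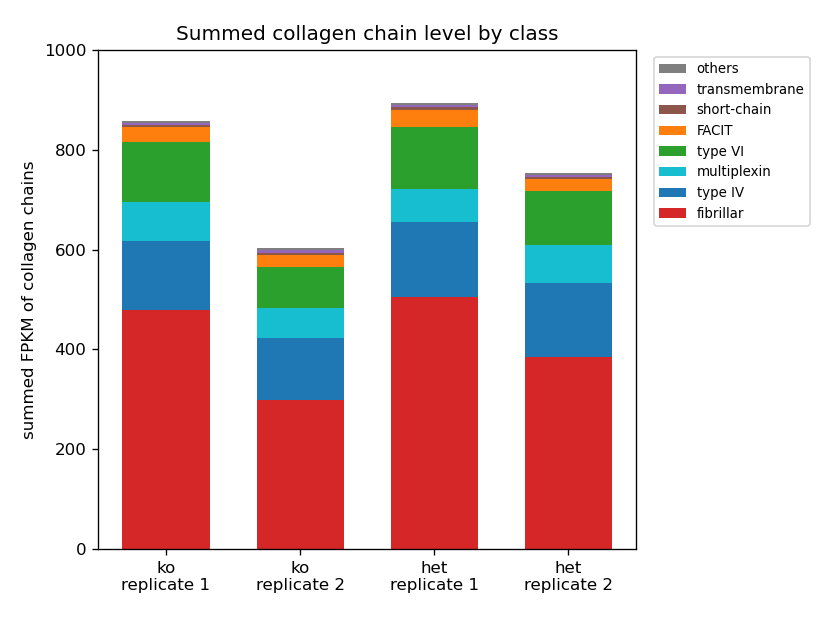
Summed FPKM of the collagen chains in each library, stacked by class, with ko replicates 1 and 2 left of het replicates 1 and 2. The sums are 858, 602, 894 and 754 FPKM, and the fibrillar class is the largest part of each bar.

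Fibrillar chains were 55.9% and 49.6% of the summed level in ko, against 56.5% and 51.1% in het. Type IV chains were 16.0% and 20.7% in ko, against 16.8% and 19.5% in het, and type VI chains 13.8% to 14.3% in the 4 libraries. Multiplexins, the chains that carry endostatin domains, took 7.36% to 10.2%, and fibril-associated chains 3.31% to 4.16%. The genes Col1a1, Col3a1 and Col1a2 alone made up 52.0% and 45.3% in ko, against 52.5% and 46.9% in het.

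**Figure D2:**
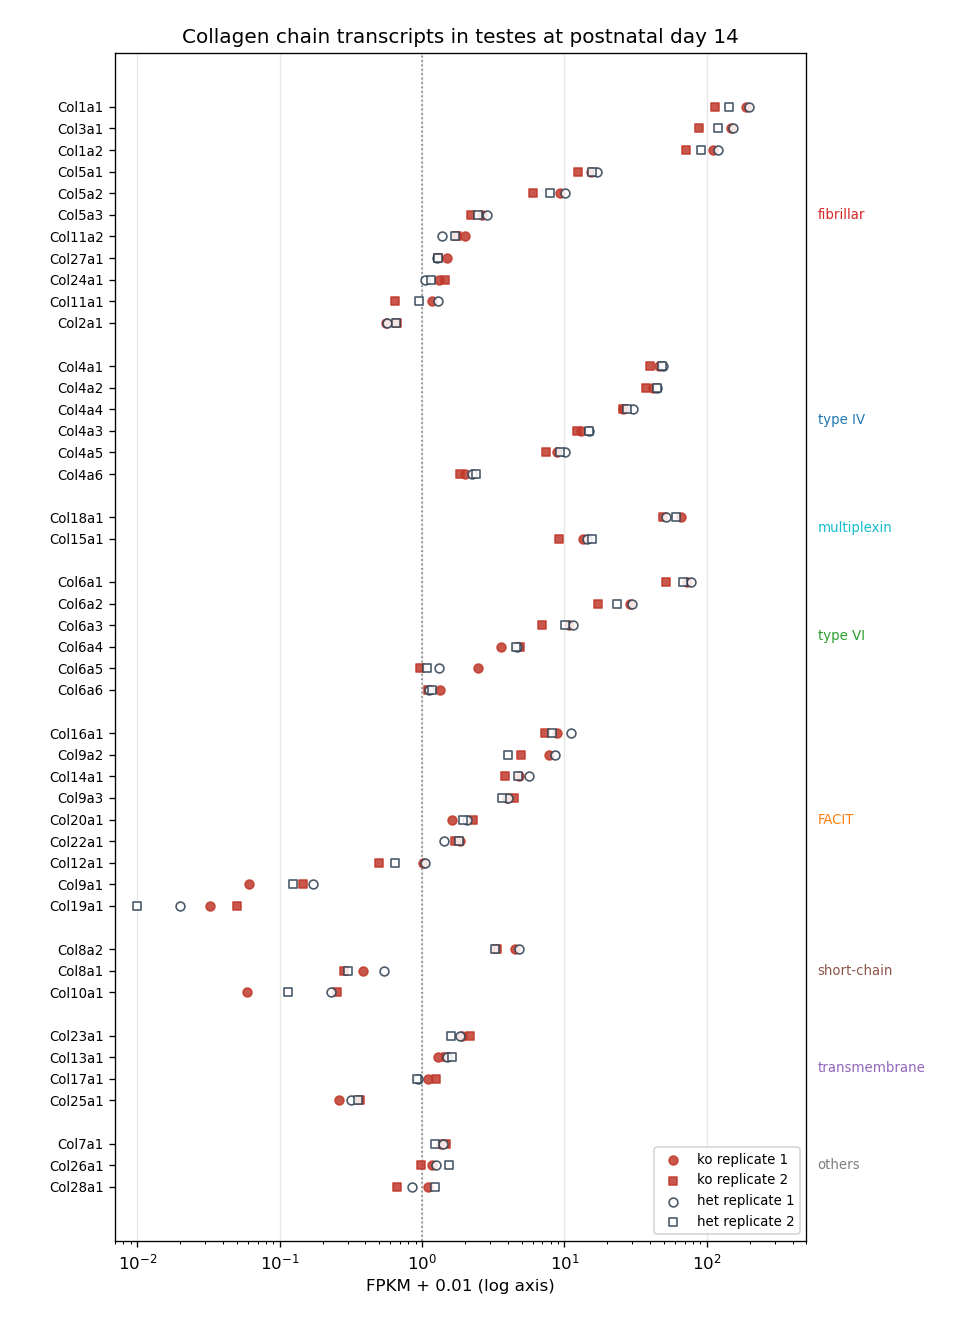
FPKM plus 0.01 on a log axis for the 44 collagen chains, grouped by class, with 1 point per library (filled, ko; open, het; circle, replicate 1; square, replicate 2). The dotted line marks 1 FPKM, and levels run from 0 for Col19a1 in het replicate 2 to 197 FPKM for Col1a1 in het replicate 1.

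No collagen chain was called between the genotypes. Of the 44 members, 36 had a mean of at least 1 FPKM and were tested with limma on log2(FPKM + 1), a scale that understates the change of low genes. Limma with Benjamini-Hochberg adjustment called 0 of the 36 higher and 0 lower, at adjusted p from 0.537 (Col4a3) to 0.980 (Col8a2). Over all 17905 genes tested it called 0.207% higher and 0.0112% lower, a background at which a count of 0 among 36 members says little. Limma had 0 members in either direction at an unadjusted p under 0.05, beside 4.9% of all genes higher and 4.41% lower. With all libraries kept, that count became 3 lower after quantile normalization, beside 851 of 17905 genes lower. Such counts are not given for fits that leave 1 library in a group. It was 1 lower with median-of-ratios scaling, beside 818 of 17905 genes, and 1 lower without the filter, beside 1206 of 37429 genes. On whole reads recovered from the FPKM, limma voom also called 0 members, beside 0.774% of genes higher and 0.619% lower. Voom put 3 members, Col15a1, Col4a3 and Col4a5, lower at an unadjusted p under 0.05, beside 5.61% of genes, and 0 higher, beside 5.34%.

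The median log2 fold change was -0.16 over the 36 chains tested and 0.0095 over all genes tested. Of the 36, 24 lay below 0, beside 47.9% of all genes. Without ko replicate 2 the median turned to 0.031, without het replicate 1 it was -0.055, and without ko replicate 1 or het replicate 2 it was -0.22 or -0.18. Ko replicate 2 was the lowest of the 4 libraries in 22 of the 36 chains, beside 26.7% of all genes tested. In 10 chains both ko libraries lay below both het libraries, beside 19.7% of all genes. In 5 they lay above, beside 22.1% of all genes, and in 21 the groups overlapped.

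**Figure D3:**
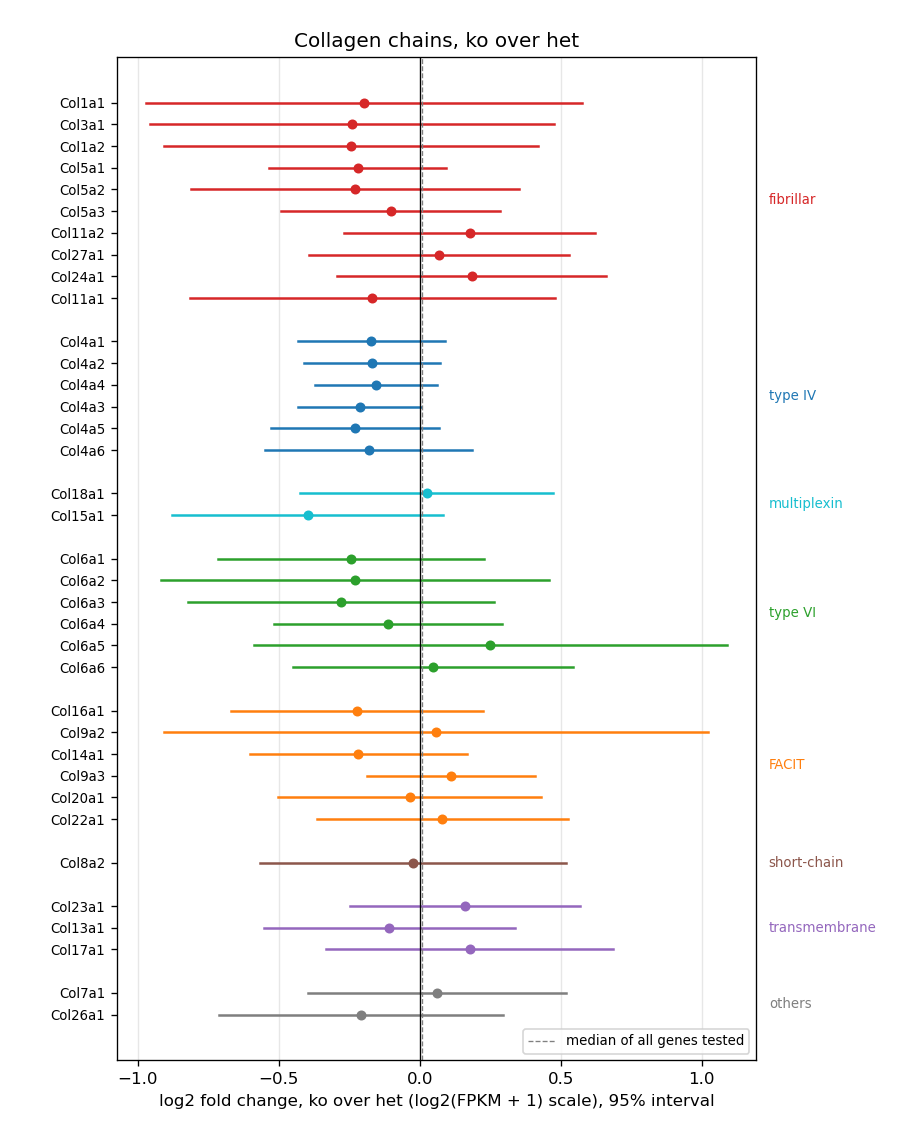
Log2 fold change of ko over het on the log2(FPKM + 1) scale for the 36 chains tested, with the limma 95% interval, coloured by class. All 6 type IV points lie left of 0, with the widest interval of the class for Col4a6 (-0.55 to 0.19), and every interval on the plot includes 0.

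The 3 leading fibrillar chains were lowest in ko replicate 2 and differed more within a genotype than between the genotypes. Col1a1, the major chain of type I collagen (chromosome 11, 94936224 to 94953042), stood at 189 and 113 FPKM in ko testes, against 197 and 143 FPKM in het testes. Its log2 fold change was -0.20 (SE 0.30, 95% interval -0.97 to 0.58, limma adjusted p = 0.860). Col1a2, which completes the type I trimer (chromosome 6, 4504814 to 4541544), stood at 109.6 and 70.8 FPKM in ko, against 120.1 and 90.9 FPKM in het. Col3a1, the chain of type III collagen in the fine reticular fibres of soft organs (chromosome 1, 45311538 to 45349706), stood at 147 and 88.5 FPKM in ko, against 152 and 119.7 FPKM in het. In each of the 3 genes the order from high to low was het replicate 1, ko replicate 1, het replicate 2, ko replicate 2, so the groups interleaved. Their log2 fold changes were -0.20, -0.24 and -0.24 for Col1a1, Col1a2 and Col3a1. Without ko replicate 2 these 3 turned to 0.17, 0.067 and 0.12.

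Type V chains, which join type I fibrils and start their assembly, showed the same order in Col5a2. Col5a2, which lies 24614 bases from Col3a1 and tail to tail with it, stood at 9.29 and 6.02 FPKM in ko, against 10.1 and 7.94 FPKM in het. Col5a1 was 1 of the 10 chains with both ko libraries below both het libraries, at 15.2 and 12.5 FPKM in ko, against 16.8 and 15.6 FPKM in het. Its log2 fold change was -0.22 (SE 0.12, 95% interval -0.53 to 0.09, limma adjusted p = 0.635). Col5a3, another type V chain, stood at 2.62 and 2.19 FPKM in ko, against 2.86 and 2.45 FPKM in het, again in that order.

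Among the rarer fibrillar chains, 3 lay higher in ko. Col24a1, a minor fibrillar chain, stood at 1.30 and 1.45 FPKM in ko, against 1.03 and 1.14 FPKM in het (192 and 161 reads in ko, against 115 and 106 reads in het). Col11a2, a chain of type XI collagen best known from cartilage, stood at 1.98 and 1.74 FPKM in ko, against 1.36 and 1.70 FPKM in het. Col27a1, another minor fibrillar chain, stood at 1.48 and 1.28 FPKM in ko, against 1.26 and 1.28 FPKM in het. All 3 had both ko libraries above both het libraries, for Col27a1 by less than the rounding of these values. This upward separation of the genotypes held in 3 of the 10 fibrillar chains tested, beside 22.1% of all genes. The log2 fold changes of Col24a1, Col11a2 and Col27a1 were 0.18, 0.18 and 0.068, and none was called. Col11a1, the other tested type XI chain, stood at 1.16 and 0.635 FPKM in ko, against 1.29 and 0.949 FPKM in het, and kept the order of Col1a1. The cartilage genes Acan, Matn1, Matn3 and Cnmd summed to 1.70 and 1.69 FPKM in ko and 1.74 and 1.48 FPKM in het. Over the 10 fibrillar chains tested the median log2 fold change was -0.18, which turned to 0.095 without ko replicate 2 and was -0.36 without ko replicate 1.

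In all 6 type IV chains both ko libraries lay under both het libraries, beside 19.7% of all genes, with ko means 0.831 to 0.893 times the het means, and none was called. Col4a1 and Col4a2, the chains of nearly every basement membrane, stood highest. Col4a1 (chromosome 8, 11198423 to 11312826) had 46.3 and 40.0 FPKM in ko, against 48.9 and 48.3 FPKM in het. Col4a2 had 41.8 and 37.1 FPKM in ko, against 44.5 and 44.3 FPKM in het. In both genes the het libraries were close to each other and ko replicate 2 was the lowest.

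Col4a3, Col4a4 and Col4a5 form the trimer best known from the kidney glomerulus. Col4a3 (chromosome 1, 82586921 to 82722059) had 13.1 and 12.2 FPKM in ko, against 14.7 and 14.8 FPKM in het. Its log2 fold change was -0.21 (SE 0.08, 95% interval -0.43 to 0.0047, limma adjusted p = 0.537), and 563 of its exon bases (5.65%) are shared with C430014B12Rik on the other strand. Col4a4 had 25.7 and 26.0 FPKM in ko, against 30.1 and 27.7 FPKM in het. On chromosome X, Col4a5 had 8.82 and 7.43 FPKM in ko, against 10.1 and 9.28 FPKM in het. Col4a6, which pairs with Col4a5 in a further trimer, had 1.99 and 1.83 FPKM in ko, against 2.24 and 2.36 FPKM in het. The log2 fold changes of the 6 chains lay between -0.23 (Col4a5) and -0.16 (Col4a4), with a median of -0.18. Without ko replicate 1 the median was -0.26, and without ko replicate 2 it was -0.13.

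The ratios of 5 pairs of chains that share a start region or a trimer spread over the 4 libraries by between 1.03-fold and 1.19-fold. The ratio of Col4a1 to Col4a2 was 1.11 and 1.08 in ko, against 1.10 and 1.09 in het, a spread of 1.03-fold over the 4 libraries, while Col4a1 itself spread 1.22-fold. The ratio of Col4a3 to Col4a4 was 0.509 and 0.468 in ko, against 0.490 and 0.533 in het, a spread of 1.14-fold that is near those of Col4a3 (1.22-fold) and Col4a4 (1.17-fold). The ratio of Col4a5 to Col4a6 was 4.44 and 4.05 in ko, against 4.50 and 3.93 in het, a spread of 1.15-fold beside 1.36-fold for Col4a5 and 1.29-fold for Col4a6. For type I collagen, the ratio of Col1a1 to Col1a2 was 1.73 and 1.60 in ko, against 1.64 and 1.58 in het. That spread of 1.10-fold stood beside spreads of 1.74-fold for Col1a1 and 1.70-fold for Col1a2. The height of each ratio depends on the exon length used, which for Col1a2 (12426 bases) counts all annotated isoforms, while its differences between libraries do not.

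The endostatin-bearing multiplexins bind the basement membrane to the tissue around it, and their members differed. Col15a1 (chromosome 4, 47208161 to 47313167) had 13.4 and 9.19 FPKM in ko, against 14.4 and 15.5 FPKM in het. Both ko libraries lay below both het libraries, with a log2 fold change of -0.40 (SE 0.18, 95% interval -0.88 to 0.08, limma adjusted p = 0.592). It was -0.15 without ko replicate 2 and -0.65 without ko replicate 1. On whole reads voom gave -0.42 (adjusted p = 0.259). Col18a1 (chromosome 10, 77052178 to 77166548) had 65.7 and 49.4 FPKM in ko, against 51.4 and 61.1 FPKM in het. The highest and the lowest library were both ko, and the log2 fold change of 0.025 (95% interval -0.42 to 0.47) turned to -0.042 after quantile normalization.

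Type VI collagen forms beaded filaments around cells, and its 3 main chains followed the order of the fibrillar genes. Col6a1 (chromosome 10, 76708792 to 76726168) had 72.1 and 51.8 FPKM in ko, against 77.2 and 68.1 FPKM in het. Its neighbour Col6a2 had 28.6 and 17.3 FPKM in ko, against 29.8 and 23.2 FPKM in het. Col6a3, the longest of the 3 chains as a protein, had 10.8 and 6.97 FPKM in ko, against 11.5 and 10.1 FPKM in het. All 3 were highest in het replicate 1 and lowest in ko replicate 2, with ko replicate 1 between the het libraries. The ratio of Col6a1 to Col6a2 was 2.52 and 2.99 in ko, against 2.59 and 2.93 in het, a spread of 1.19-fold beside 1.49-fold for Col6a1 and 1.72-fold for Col6a2.

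Col6a4, Col6a5 and Col6a6, alternatives to Col6a3 that lie side by side on chromosome 9, did not share its order. Col6a5 had 2.46 and 0.955 FPKM in ko, against 1.31 and 1.07 FPKM in het, from 450 and 131 reads in ko and 181 and 122 reads in het. Ko replicate 1 alone was high, and the log2 fold change of 0.25 (95% interval -0.59 to 1.09) was the highest among the chains tested. Without ko replicate 1 it turned to -0.16. Col6a4 had 3.56 and 4.87 FPKM in ko, against 4.60 and 4.57 FPKM in het, with ko replicate 1 the lowest. Col6a6 had 1.33 and 1.09 FPKM in ko, against 1.10 and 1.17 FPKM in het.

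The fibril-associated chains, which coat fibrils without forming them, were led by Col16a1. It had 8.82 and 7.34 FPKM in ko, against 11.1 and 8.20 FPKM in het. Col14a1, which binds type I fibrils, had 4.78 and 3.81 FPKM in ko, against 5.61 and 4.68 FPKM in het. Both overlapped between the groups, as did the other 4 tested members of the class. Among the 6 tested, Col9a2 differed most between libraries of 1 genotype, at 7.82 and 4.94 FPKM in ko, against 8.63 and 4.01 FPKM in het. Col9a3, which with Col9a1 and Col9a2 makes type IX collagen, had 3.97 and 4.38 FPKM in ko, against 3.97 and 3.61 FPKM in het, and shares 6.07% of its exon bases with Tcfl5 on the other strand. The low chains Col20a1 and Col22a1 lay between 1.42 and 2.26 FPKM in the 4 libraries. Col9a1 had only 5 and 10 reads in ko, against 12 and 7 reads in het.

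The membrane-spanning chains and the remaining classes were low. Col23a1, a transmembrane chain, had 1.91 and 2.17 FPKM in ko, against 1.85 and 1.59 FPKM in het, and both ko libraries were above both het libraries. Col17a1, the collagen of hemidesmosomes in epithelia, had 1.10 and 1.24 FPKM in ko, against 0.921 and 0.917 FPKM in het, from 128 and 109 reads in ko and 81 and 67 reads in het. Col13a1, a transmembrane chain found at cell contacts, had 1.27 and 1.47 FPKM in ko, against 1.49 and 1.62 FPKM in het, with ko below. Col26a1, a chain first described in testis and ovary, had 1.16 and 0.965 FPKM in ko, against 1.24 and 1.53 FPKM in het, also with ko below. The log2 fold changes of these 4 genes were 0.16, 0.18, -0.11 and -0.21, and none was called. Col8a2, a short network-forming chain, had 4.49 and 3.33 FPKM in ko, against 4.76 and 3.26 FPKM in het. Col7a1, the chain of anchoring fibrils, had 1.35 and 1.45 FPKM in ko, against 1.39 and 1.22 FPKM in het.

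The 8 members under a mean of 1 FPKM were not tested. Col12a1, a long fibril-associated chain, stood at 1.01 and 0.491 FPKM in ko, against 1.03 and 0.632 FPKM in het. Col28a1 had 104 and 47 reads in ko, against 60 and 73 reads in het, and Col2a1, the fibrillar chain of cartilage, had 98 and 88 reads in ko, against 76 and 73 reads in het. Col25a1 and Col8a1 lay between 0.253 and 0.532 FPKM in the 4 libraries. Col10a1, the chain of hypertrophic cartilage, had 3 and 11 reads in ko, against 10 and 4 reads in het. Col19a1 had 3 and 4 reads in ko, against 1 and 0 reads in het.

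Classes differed in how far the libraries of 1 genotype stood apart. The median log2 difference of replicate 1 over replicate 2 was 0.46 in ko and 0.28 in het for the 10 fibrillar chains tested. It was 0.14 in ko and 0.010 in het for the 6 type IV chains, and 0.55 in ko and 0.19 in het for the 6 type VI chains. Over all genes tested the median size of this difference, regardless of sign, was 0.17 between the ko libraries and 0.16 between the het libraries. For the fibrillar chains that size was 0.46 and 0.33, and for the type IV chains 0.14 and 0.047. The limma standard errors followed, at 0.08 to 0.14 for type IV chains and 0.25 to 0.30 for Col1a1, Col1a2 and Col3a1. For the 12 tested fibril-binding proteins outside the collagen family the median of replicate 1 over replicate 2 was 0.30 in ko and 0.045 in het. Between the ko libraries they ran from -0.20 for Fn1, the fibronectin gene, to 0.82 for Fmod, a fibril-binding proteoglycan.

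**Figure D4:**
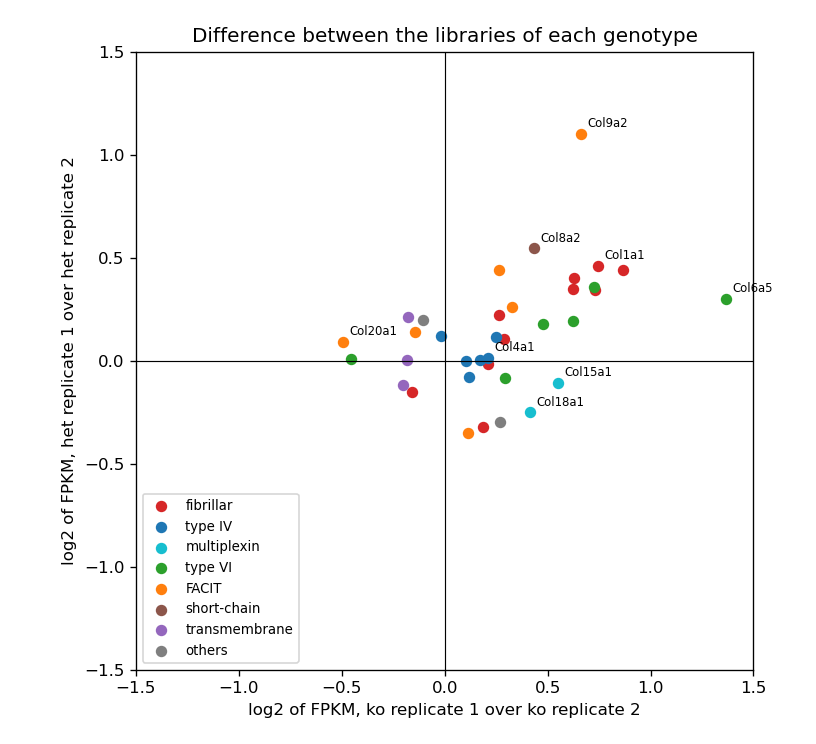
Log2 of FPKM in replicate 1 over replicate 2, in ko (horizontal axis) and in het (vertical axis), for the 36 chains tested, coloured by class. The abundant fibrillar chains and the 3 main type VI chains lie to the upper right (Col1a1 at 0.74 and 0.46), and type IV chains lie near the origin, from -0.016 to 0.25 on the horizontal axis.

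Of 79 genes that modify, cross-link, bind, sense or break down collagen, 62 were tested, and limma called 0 higher and 0 lower, beside 0.207% and 0.0112% of all genes. In those directions 2 and 4 of the 62 passed an unadjusted p under 0.05, near the shares of 4.9% and 4.41% over all genes. Voom called 1 higher, Ddr1, and 0 lower, beside 0.774% and 0.619% of all genes. Their median log2 fold change was -0.056. In 17 of the 62 both ko libraries lay below both het libraries and in 12 above, beside 19.7% and 22.1% of all genes. Ddr1, a receptor kinase that collagen activates on epithelial cells, had 44.7 and 42.8 FPKM in ko, against 30.3 and 32.0 FPKM in het. Its log2 fold change was 0.48 (SE 0.08, limma adjusted p = 0.268), and voom gave 0.49 with an adjusted p of 0.0184. Mrc2, which takes up collagen fragments, had 2.98 and 3.29 FPKM in ko, against 3.78 and 3.53 FPKM in het.

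Among the other basement membrane proteins none was called. Of 12 tested laminins, nidogens, perlecan and agrin, 7 had both ko libraries below both het libraries and 1 above, beside 19.7% and 22.1% of all genes. Their median log2 fold change was -0.11, with 9 below 0 and 3 above, namely Agrn, Lama5 and Lamb2. Lamc3, a laminin gamma chain, had 32.6 and 35.5 FPKM in ko, against 41.6 and 42.9 FPKM in het (log2 fold change -0.30, SE 0.084, limma adjusted p = 0.451). Agrn, a heparan sulfate proteoglycan, was the gene with both ko libraries above, at 10.5 and 11.3 FPKM in ko, against 7.70 and 8.67 FPKM in het (log2 fold change 0.38, SE 0.10, limma adjusted p = 0.433). Pxdn, the peroxidase that cross-links type IV collagen, had 6.53 and 5.98 FPKM in ko, against 7.31 and 7.46 FPKM in het.

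Genes of collagen folding, processing, fibril binding and breakdown had list medians between -0.12 and 0.058, beside 0.0095 over all genes. Among 16 tested genes of chain modification the median log2 fold change was 0.058. The prolyl isomerase Ppib had 55.0 and 50.1 FPKM in ko, against 40.9 and 46.2 FPKM in het, and P3h4, a subunit of a lysine-modifying complex, had 24.4 and 22.0 FPKM in ko, against 20.2 and 18.1 FPKM in het. Among 9 tested genes of processing and cross-linking the median was -0.12, and the amine oxidase Loxl3 had 6.59 and 6.57 FPKM in ko, against 5.92 and 5.61 FPKM in het. Among 12 fibril-binding proteins it was -0.071, with 9 below 0 and 3 above. In 3 of these 12 both ko libraries lay below both het libraries and in 0 above, beside 19.7% and 22.1% of all genes. Thbs2, a thrombospondin, had 2.99 and 2.597 FPKM in ko, against 4.52 and 3.52 FPKM in het, and Fbn1, the main protein of microfibrils, had 8.31 and 7.38 FPKM in ko, against 10.0 and 9.04 FPKM in het. Among 6 genes of breakdown it was 0.029, with Mmp14, a membrane-bound collagenase, at 21.3 and 18.8 FPKM in ko, against 23.6 and 21.8 FPKM in het, and the inhibitor Timp3 at 25.4 and 22.3 FPKM in ko, against 21.5 and 22.2 FPKM in het.

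No stromal or endothelial marker was called. The summed level of 6 stromal markers was 68.7 and 67.6 FPKM in ko, against 79.3 and 80.6 FPKM in het, and 4 of 5 tested had both ko libraries below both het libraries, beside 19.7% of all genes, with Nr2f2 at 9.31 and 8.46 FPKM in ko, against 10.5 and 11.3 FPKM in het. The 6 endothelial markers summed to 15.2 and 12.8 FPKM in ko, against 16.1 and 15.9 FPKM in het. In 3 of 5 tested both ko libraries lay below both het libraries, beside 19.7% of all genes, and Tie1 had a log2 fold change of 0.054. The 6 peritubular muscle markers summed to 275 and 255 FPKM in ko, against 278 and 250.4 FPKM in het. The 6 Sertoli markers summed to 1001 and 849 FPKM in ko, against 661 and 795 FPKM in het, with 3 of 6 above, beside 22.1% of all genes, and Clu made up most of the sum. The 5 Leydig markers summed to 191 and 149 FPKM in ko, against 146 and 135 FPKM in het, and the groups overlapped in all 5. The sum hides a wide gap between the het libraries in Cyp17a1, at 16.7 and 22.1 FPKM in ko, against 27.6 and 2.85 FPKM in het. The 6 macrophage markers summed to 126 and 105 FPKM in ko, against 56.8 and 57.0 FPKM in het, with 5 of 6 above, beside 22.1% of all genes. C1qa and C1qb made up most of that sum, with log2 fold changes of 1.31 and 1.34. The log2 fold change was 0.59 for Adgre1, 0.29 for Cx3cr1, 0.21 for Csf1r and -0.028 for Mrc1. Of all markers tested, limma called only the macrophage gene C1qb, higher in ko (46.5 and 39.9 FPKM in ko, against 16.6 and 16.1 FPKM in het, adjusted p = 0.0375). Voom called C1qa and C1qb higher (voom adjusted p = 0.00026 and 0.00011), beside 0.774% of all genes. It called the pachytene genes Piwil1 and Ldhc lower (voom adjusted p = 0.00061 and 0.0062), beside 0.619% of all genes. The 3 mesothelial markers of the capsule, of which only Lrrn4 was tested, summed to 5.63 and 3.44 FPKM in ko, against 1.67 and 1.79 FPKM in het. Adipocyte markers summed to 2.61 to 4.04 FPKM and epididymal markers to 9.29 to 13.4 FPKM, with Rnase10 at 0 in every library. The 5 germ line markers summed to 629 and 612 FPKM in ko, against 790.0 and 652 FPKM in het. In 3 of these 5 both ko libraries lay below both het libraries, beside 19.7% of all genes. The 5 pachytene markers summed to 65.5 and 71.2 FPKM in ko, against 214 and 109 FPKM in het. All 3 pachytene markers tested had both ko libraries below both het libraries, beside 19.7% of all genes. The part of these cell types in the collagen values was not tested.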

How the data were processed

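Poly(A) RNA of testes was sequenced in 2 ko and 2 het libraries. The authors deposited 1 FPKM value for each symbol in each library, as the file headers name it. FPKM divides by exon length and library total. Relative counting error grows as the reads behind a value become fewer. The submitters' processing notes name CASAVA 1.9, STAR 2.6.1a, featureCounts, edgeR and GRCm38 without roles. Neither the annotation release nor the strand setting is stated, so antisense genes that overlap cannot be told apart.

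Symbols were matched to GENCODE M21 (GRCm38) for position and exon length (96.0% of rows). FPKM times exon length moved in steps of 1 read, and 99.1% or more of values up to 20 reads were whole within 0.02. The 17905 genes averaging 1 FPKM or more were fitted by genotype in limma 3.58.1 (R 4.3.3, intensity trend, log2 of FPKM plus 1, Benjamini-Hochberg adjustment over all genes, called under 0.05). The code was tested on simulated reads with changes larger than those of any collagen chain tested. That test does not show how well smaller changes are found. Fold changes have limma's 95% intervals. Members and lists were chosen with earlier results of these data known. Genes with full values were taken by level within class, by highest and lowest fold change, by calls and, in the other lists, by smallest p, apart from those stated to be chosen otherwise and further chains given for completeness. Alternatives were a pseudocount of 0.1, no filter, a replicate block, each library left out, limma voom on whole reads, median-of-ratios scaling and quantile normalization.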

Additional observations from a re-analysis of the deposited data

How the results depend on the processing

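Collagen chains were called in no setting run, namely a pseudocount of 0.1, no filter, the replicate block, each library left out, voom on whole reads, median-of-ratios scaling and quantile normalization. The genes called over the whole table, 37 higher and 2 lower, numbered 0 and 0 without the filter, 15 and 0 with the replicate block, 135 and 108 with voom, and 0 and 0 without any 1 library. The differences between replicates in ko and in het correlated at r = -0.03 across all genes tested. That value does not decide whether the replicate numbers mark pairs, which the labels do not state. Of the 36 chains tested, replicate 1 lay above replicate 2 in 27 in ko and in 25 in het. Over all 17905 genes tested, this held for 10099 in ko and 8745 in het. Under the block the smallest adjusted p of a chain was 0.632. Voom called 1 partner gene higher, Ddr1, against 0 by limma. An arm left with 1 library was assumed to vary like the other.

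With each library left out in turn, the median log2 fold change ran from -0.22 to 0.031 over all chains, from -0.36 to 0.095 for fibrillar, from -0.26 to -0.13 for type IV, from -0.32 to 0.059 for type VI and from -0.41 to 0.041 for multiplexin chains. For fibril-associated chains the median of 0.012 with all libraries ran from -0.20 to -0.015 with each left out, and was -0.010 with voom and -0.035 without the filter. The log2 fold changes of 14 chains changed sign when 1 library was left out, with these ranges over the 4 omissions: Col11a1 from -0.37 to 0.032, Col18a1 from -0.18 to 0.23, Col1a1 from -0.57 to 0.17, Col1a2 from -0.55 to 0.067, Col20a1 from -0.20 to 0.13, Col22a1 from -0.027 to 0.19, Col3a1 from -0.60 to 0.12, Col5a2 from -0.51 to 0.046, Col6a2 from -0.58 to 0.12, Col6a4 from -0.29 to 0.071, Col6a5 from -0.16 to 0.66, Col6a6 from -0.034 to 0.13, Col8a2 from -0.24 to 0.19 and Col9a2 from -0.41 to 0.53. The transmembrane median of 0.16 was 0.23 with a pseudocount of 0.1 and 0.067 without the filter. For Col7a1 and Col26a1 the median of -0.074 was -0.13 with a pseudocount of 0.1, -0.13 with voom and -0.045 after quantile normalization. Without the filter, with Col28a1 added, it was -0.12. Col18a1 turned to -0.042 after quantile normalization. The cause was not tested. With 2 libraries a group, the interval of Col1a1 ran from -0.97 to 0.58, and low chains are further limited by their reads.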

Other observations

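Loxl4, a lysyl oxidase that cross-links collagen, had a mean below 1 FPKM and was not tested. It stood at 1.28 and 1.27 FPKM in ko testes, against 0.470 and 0.683 FPKM in het testes, and was named after its values were seen. So were 2 mesothelial genes, also untested. Upk3b stood at 1.98 and 1.22 FPKM in ko, against 0.329 and 0.163 FPKM in het. Msln stood at 1.21 and 1.05 FPKM in ko, against 0.223 and 0.537 FPKM in het.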
